A study of Mus musculus with 6 samples.

Results

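The immunoglobulin variable (V) gene repertoire was described in RNA from articular cartilage of young and aged mice. Its members were all rows of the deposited gene table whose name begins with Ighv, Igkv or Iglv and whose annotation is not a pseudogene, which gave 198 of the 33971 rows. They comprised 100 heavy chain V genes on chromosome 12, 95 kappa light chain V genes on chromosome 6 and 3 lambda light chain V genes on chromosome 16, and 35 V rows annotated as pseudogenes were left out. Cartilage was taken from wild-type (WT) mice at 2 months of age (3 libraries) and at 18 months (3 libraries). The strain was not given in the sources used here, the labels name no other allele or agent for either group, and the methods of the study name male mice. The study states in general that its experiments used independent samples. Nothing in the labels says that the libraries of a group came from separate animals, so the spread between them may be technical.

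An antibody gene is assembled in developing B cells by joining a V segment to a J segment, with a D segment between them in the heavy chain. A plasma cell, the antibody-secreting form of a B cell, holds far more V gene transcript than a resting B cell, so the V transcripts of a tissue reflect both how many such cells it holds and how active they are. Cartilage itself has no blood vessels, whereas the adjoining bone encloses marrow, where B cells form and plasma cells reside. In these bulk samples, fewer cells of a type and less RNA per cell cannot be told apart.

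Sequences of the V exons are shown first because they are the items that were counted. Each of the 198 members had the same coordinates in GENCODE M21, build GRCm38, and the sequences were read from its transcripts. The last 150 bases of the V exon are printed, 5′ to 3′, for the most abundant heavy, kappa or lambda V gene of the 4 libraries with more than 100 V counts. Capitals mark the codons of the conserved tyrosine, tyrosine or phenylalanine, and cysteine, beyond which the join to D or J lies. TATTACTGT, TATTACTGC, TATTTCTGT and TATTTCTGC were searched on the sense strand of the last 60 bases, and 159 of the 198 members (80.3%) held one. Of 141113 other transcripts 0.202% did, a set that left out all immunoglobulin and T cell receptor V genes. The motif's share among T cell receptor V genes was therefore not read.
Ighv10-1, which led the heavy chain in 2-month replicate 2 (chr12:114479005-114479154, minus strand): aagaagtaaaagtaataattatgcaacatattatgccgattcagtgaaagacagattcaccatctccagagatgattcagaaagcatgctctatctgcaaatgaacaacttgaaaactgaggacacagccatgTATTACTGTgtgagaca
Ighv5-9, which led in 18-month replicate 1 (chr12:113661769-113661918, minus strand): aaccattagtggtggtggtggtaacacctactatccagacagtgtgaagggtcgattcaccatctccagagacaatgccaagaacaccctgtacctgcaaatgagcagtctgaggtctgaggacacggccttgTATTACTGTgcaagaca
Ighv3-6, which led in 18-month replicate 2 (chr12:114288152-114288301, minus strand): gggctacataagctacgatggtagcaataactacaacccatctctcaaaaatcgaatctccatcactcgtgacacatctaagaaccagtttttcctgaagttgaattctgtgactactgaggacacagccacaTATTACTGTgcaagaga
Ighv11-2, which led in 18-month replicate 3 (chr12:114048241-114048390, minus strand): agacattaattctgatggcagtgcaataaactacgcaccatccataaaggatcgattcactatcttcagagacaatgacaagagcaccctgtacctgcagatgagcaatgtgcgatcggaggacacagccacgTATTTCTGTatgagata
Igkv4-55, which led the kappa chain in all 3 18-month libraries (chr6:69607275-69607424, minus strand): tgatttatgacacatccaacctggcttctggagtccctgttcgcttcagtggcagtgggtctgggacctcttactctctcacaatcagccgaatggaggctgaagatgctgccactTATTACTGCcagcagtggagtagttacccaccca
Iglv1, which led the lambda chain in these 4 libraries (chr16:19085017-19085166, minus strand): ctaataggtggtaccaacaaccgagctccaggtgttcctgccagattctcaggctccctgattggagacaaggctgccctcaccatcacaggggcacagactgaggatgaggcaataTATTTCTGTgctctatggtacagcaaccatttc

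V genes resemble each other closely, which bears on how far one can be told from another in counted reads. The median identity of a member to its closest relative was 95.1% over the V exon, 101 of the 198 were at least 95% identical to another member, and Ighv1-62-2 and Ighv1-71 were identical. Members at least 95% identical to another held 62.2% of all 18-month V counts, so their separate values are uncertain wherever the counting split reads between copies. A pair from the heavy chain and a pair from the kappa chain show the spacing of the differences, which capitals mark. Ighv1-18 and Ighv1-26 differed at 8 of 305 aligned bases (97.4% identity). Igkv1-117, which led the kappa chain in 2-month replicate 2, and Igkv1-110 differed at 10 of 313 (96.8% identity). The last 300 bases of each V exon are printed.
Ighv1-18 (chr12:114682632-114682931, minus strand): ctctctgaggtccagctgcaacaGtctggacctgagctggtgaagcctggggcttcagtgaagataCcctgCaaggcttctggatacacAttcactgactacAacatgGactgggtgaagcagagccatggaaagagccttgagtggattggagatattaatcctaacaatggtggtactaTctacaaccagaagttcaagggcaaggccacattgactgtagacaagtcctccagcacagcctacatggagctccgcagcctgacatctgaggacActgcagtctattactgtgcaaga
Ighv1-26 (chr12:114788372-114788671, minus strand): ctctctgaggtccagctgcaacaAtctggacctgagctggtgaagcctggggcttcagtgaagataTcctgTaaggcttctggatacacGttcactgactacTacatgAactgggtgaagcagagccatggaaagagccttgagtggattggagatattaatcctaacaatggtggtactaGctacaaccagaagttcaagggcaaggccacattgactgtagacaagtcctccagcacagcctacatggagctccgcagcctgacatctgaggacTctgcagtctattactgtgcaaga
Igkv1-117 (chr6:68121528-68121827, plus strand): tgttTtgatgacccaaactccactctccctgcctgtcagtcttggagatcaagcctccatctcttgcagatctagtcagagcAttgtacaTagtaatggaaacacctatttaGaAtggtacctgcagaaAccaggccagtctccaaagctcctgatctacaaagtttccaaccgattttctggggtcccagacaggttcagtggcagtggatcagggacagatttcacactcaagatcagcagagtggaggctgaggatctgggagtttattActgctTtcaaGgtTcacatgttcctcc
Igkv1-110 (chr6:68270968-68271267, plus strand): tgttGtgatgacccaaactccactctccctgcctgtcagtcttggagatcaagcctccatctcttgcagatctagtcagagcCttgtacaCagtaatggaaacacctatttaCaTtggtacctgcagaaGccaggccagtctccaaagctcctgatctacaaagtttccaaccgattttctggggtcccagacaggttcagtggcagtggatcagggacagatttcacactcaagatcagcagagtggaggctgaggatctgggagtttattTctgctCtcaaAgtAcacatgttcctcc

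The libraries held 48171507 to 51683577 counts at 2 months and 55201357 to 59085179 at 18 months, and they stood apart in ways that touch the V genes. Chondrocyte genes (16 listed) summed to 68055 to 80167 CPM (counts scaled to one common library total) at 2 months and 1908 to 8246 at 18 months, and all 16 were called lower at 18 months, so the aged libraries carried little RNA of the labelled tissue's defining genes. Matn1 and Matn3 were at 0 in 18-month replicate 3 and no other listed chondrocyte gene was at 0 in any library. Neutrophil genes (14 listed), among them S100a8, S100a9, Ngp and Ltf, summed to 17.6, 5674 and 269 CPM in the 2-month replicates 1 to 3 and to 43389 to 46382 at 18 months. Erythroid genes summed to 248, 6803 and 701 CPM at 2 months and to 28240 to 36940 at 18 months. The second 2-month library therefore carried blood-lineage RNA that the other two had little of, and results are given below with and without it. Xist, transcribed from the inactive X chromosome of females, had 88239 to 102417 counts at 2 months and 11 to 30 at 18 months. The methods name male mice throughout, and sex and age cannot be told apart in these libraries. The part of marrow or blood cells, of sex and of chondrocyte loss in the V gene values was not tested.

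V gene transcripts were nearly absent from 2 of the 3 young libraries and abundant in every aged one. The 2-month libraries held 10, 4117 and 72 V counts (0.207, 79.7 and 1.49 CPM). The 18-month libraries held 138630, 60565 and 61241 (2346, 1097 and 1099 CPM). Every 18-month value lay above every 2-month value, and 98.0% of the 2-month V counts came from replicate 2. V genes took 0.151% ± 0.0721 of all counts at 18 months and 0.00271% ± 0.00455 at 2 months (SD, n = 3 each, two-sided exact permutation p = 0.1, the smallest p that 3 against 3 allows). The order held for each chain, as the plot of V counts by library and chain shows.

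**Figure D1:**
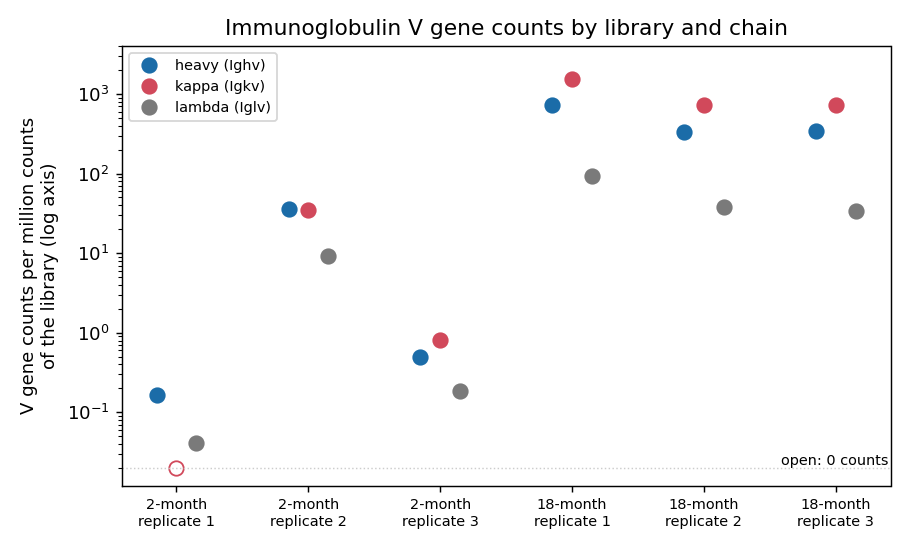
V gene CPM of the library (log axis) for the heavy, kappa and lambda chains in each of the 6 libraries; the open circle marks 0 counts. All 3 chains lie higher in each 18-month library than in any 2-month library, and 2-month replicate 2 lies between its group and the aged libraries.

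The balance of the chains differed between 2-month replicate 2 and the aged libraries. Heavy chain V genes had 8, 1843 and 24 counts at 2 months and 43146, 18293 and 19302 at 18 months. Kappa V genes had 0, 1797 and 39 counts at 2 months and 89945, 40197 and 40046 at 18 months. Lambda V genes had 2, 477 and 9 counts at 2 months and 5539, 2075 and 1893 at 18 months. Heavy and kappa counts were close to equal in 2-month replicate 2 (44.8% and 43.6% of its V counts), whereas kappa took 64.9% to 66.4% and heavy 30.2% to 31.5% at 18 months. Lambda took 20.98% of the light chain V counts in 2-month replicate 2 and 4.51% to 5.80% at 18 months. With only 1 young library of usable depth these differences in balance have no test.

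The number of V genes with at least 1 count was 2, 145 and 14 in the 2-month libraries and 186, 178 and 189 in the 18-month libraries. The means were 53.7 ± 79.3 and 184 ± 5.69 (SD, n = 3 each, two-sided exact permutation p = 0.1, the smallest possible). At matched depth the libraries lay closer together: the expected number of V genes in a draw of 4117 V counts, the total of 2-month replicate 2, was 161 to 163 in the 18-month libraries against 145 in that library. In a draw of 72 V counts, the total of 2-month replicate 3, the expected number was 41.7 to 41.8 at 18 months, 46.2 in 2-month replicate 2 and 14 in 2-month replicate 3. At that depth, 2-month replicate 2 therefore lay above and 2-month replicate 3 below the aged libraries. A draw treats each count as an independent read, yet 13 of the 14 V genes of 2-month replicate 3 had at least 3 counts. Its value may reflect how the counts were formed, so it gives no measure of its diversity.

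None of the 198 members was at 0 in all 6 libraries. At 18 months 170 were seen in all 3 libraries, and at 2 months 53 were at 0 throughout. Replicate 2 held counts of 145 members, whereas the other two young libraries together held counts of 15. Every 18-month library lay above every 2-month library, on the CPM scale, for 158 of the 198 members (79.8%), where 23.1% of all 33971 genes did so.

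In the fit across all genes with edgeR's quasi-likelihood test, a gene was called at a Benjamini-Hochberg adjusted p under 0.05 with a log2 fold change above 1 or below -1. By this rule 36.3% of the 20397 genes tested were called, 14.9% higher and 21.3% lower at 18 months. Of the V genes, 151 passed the filter on low counts and 47 did not. Of the 151, 106 were called higher (49 heavy, 57 kappa and no lambda) and 0 lower, and no member had a log2 fold change below 0. At an unadjusted p under 0.05, 124 were higher and 0 lower. Most members passed the filter through the aged libraries, where V genes are high, so these counts describe the members and are no test of them. Among the 103 tested members with at least 10 counts in some young library, 59 were called higher. The median log2 fold change of the 151 was 5.71, beside -0.02 over all genes tested. The number called was sensitive to single libraries: 60 were called when 2-month replicate 3 was left out, 64 when 18-month replicate 1 was, 67 when 18-month replicate 2 was and 157 when 2-month replicate 2 was, which left most members at 0 in the young group. DESeq2 called 128 higher and 0 lower.

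Heavy chain V genes are ordered here by level. Ighv5-9, a gene near the D segments, had 0 counts in all young libraries and 4456, 175 and 234 in the aged ones. Replicate 1 held 91.6% of its 18-month counts, and the 18-month mean lay at least 454-fold above the level of 3 counts in each young library (adjusted p = 0.0287, edgeR). The call was lost when either of the 2-month replicates 1 and 3 was left out, and DESeq2 gave no adjusted p. Ighv1-53 also had 0 counts in all young libraries, but its 1597, 1299 and 1521 counts at 18 months were near each other, at least 427-fold above the same level (adjusted p = 0.000749, edgeR). Its call was kept in all 15 other fits.

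Ighv3-6 had 0, 48 and 0 counts at 2 months and 1200, 1869 and 1926 at 18 months, a log2 fold change of 6.54 (SE 1.65, adjusted p = 0.0206, edgeR) whose call was lost when 18-month replicate 2 or 3 was left out. Ighv11-2 had 0, 6 and 0 counts at 2 months and 465, 1565 and 1944 at 18 months, a log2 fold change of 9.09 (SE 1.31, adjusted p = 0.00349, edgeR). Ighv11-2 is known from B-1 cells, innate-like B cells whose Ighv11 and Igkv14-126 pairing binds phosphatidylcholine. Its closest relative Ighv11-1, 98.7% identical and singled out after its values were seen, had 0 counts at 2 months and 0, 85 and 119 at 18 months. Both Ighv11 genes were thus higher in replicates 2 and 3 than in replicate 1. No list of B-1 cell genes was read, and whether the aged libraries differed in such cells was not tested.

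Ighv1 is the largest family of mouse heavy chain V genes, lying far from the D segments for the most part. Ighv1-18 had 0, 22 and 0 counts at 2 months and 2381, 424 and 450 at 18 months, and its near copy Ighv1-26 had 0, 82 and 0, then 1745, 1385 and 1293. The first was several times higher in 18-month replicate 1 than in the other two, while the second was near level across them. Both were called higher (log2 fold changes 6.95, SE 1.70, and 5.59, SE 1.77; adjusted p = 0.0185 and 0.0420, edgeR), and both calls were lost without 18-month replicate 1. The call of Ighv1-26 was also lost when any other library but 2-month replicate 2 was left out. Ighv1-81 (0, 48 and 0, then 1559, 428 and 437 counts) was called at adjusted p = 0.0455 (edgeR) and lost its call when any library but 2-month replicate 2 was left out. Ighv6-3 was the only heavy chain V gene seen in 2-month replicate 1, with 8, 36 and 0 counts at 2 months and 1950, 452 and 551 at 18 months (log2 fold change 5.82, SE 1.38, adjusted p = 0.0167, edgeR).

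Some heavy chain V genes with the most young counts were not called. Ighv10-1 had 0, 124 and 0 counts at 2 months and 364, 30 and 16 at 18 months, so the groups overlapped (log2 fold change 1.51, SE 2.09, adjusted p = 0.573, edgeR). Ighv3-8 had 0, 91 and 0 counts at 2 months and 68, 59 and 29 at 18 months, and 2-month replicate 2 lay above all aged libraries (log2 fold change 0.62, SE 1.74, adjusted p = 0.783). Ighv1-64 had 0, 116 and 0 counts against 1575, 272 and 320, without overlap, at adjusted p = 0.136 (edgeR). All young counts of these genes came from 2-month replicate 2. Without that library, which left the young group at 0, edgeR called Ighv10-1, Ighv3-8 and Ighv1-64 (adjusted p = 0.0456, 0.00359 and 0.00648). With all libraries, limma on log2(FPKM + 0.1) called Ighv1-64 (adjusted p = 0.0263) but not Ighv10-1 or Ighv3-8 (adjusted p = 0.275 and 0.189). The leading heavy chain V genes of 2-month replicate 3 rested on under 10 counts each: Ighv8-12 had 9, Ighv2-9-1 had 7 and Ighv13-2 had 3. At 18 months they had 850, 173 and 172, then 401, 122 and 97, then 168, 0 and 6 counts. Ighv8-12 and Ighv2-9-1 were called higher (adjusted p = 0.0196 and 0.0192, edgeR), with both calls lost when 18-month replicate 1 or 2-month replicate 3 was left out, and Ighv13-2 was not tested.

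The kappa V genes follow. Igkv4-55 was the most abundant V gene of every aged library, with 0, 6 and 7 counts at 2 months and 13302, 5508 and 5776 at 18 months (log2 fold change 10.56, SE 0.93, adjusted p = 0.00123, edgeR). Its mean FPKM at 18 months was 331 ± 166 (SD, n = 3); FPKM scales fragments to transcript length and library size. The replicate 1 count was above the other two, but its share of the kappa chain was close in the 3 libraries (14.8%, 13.7% and 14.4%). Igkv10-96 had 0, 83 and 0 counts at 2 months and 3653, 4168 and 4161 at 18 months, near level across the aged libraries (log2 fold change 7.01, SE 1.75, adjusted p = 0.0198, edgeR), but its call was lost when any of these was left out. Igkv14-126, the partner of Ighv11-2 in phosphatidylcholine-binding B-1 cells, had 0, 16 and 0 counts at 2 months and 945, 4453 and 4103 at 18 months (log2 fold change 9.01, SE 1.51, adjusted p = 0.00544, edgeR). Like Ighv11-2 it was lowest in 18-month replicate 1, which held 9.95% of its 18-month counts. Igkv3-1, with 0 counts in all young libraries and 116, 483 and 599 at 18 months, was also lowest in replicate 1 and was at least 118-fold above the level of 3 counts in each young library (adjusted p = 0.00693, edgeR).

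Other kappa V genes stood highest in 18-month replicate 1. Igkv1-110 had 0, 74 and 0 counts, then 8073, 1867 and 1841. Igkv17-127 had 0, 31 and 0, then 6175, 416 and 435. Igkv5-48 had 0, 22 and 0, then 5004, 1173 and 1096. All were called higher (adjusted p = 0.0239, 0.0265 and 0.00894, edgeR), but the calls of Igkv1-110 and Igkv17-127 were lost when 18-month replicate 1 was left out. So was that of Igkv1-110 when 18-month replicate 2 or 3 or 2-month replicate 3 was left out, and that of Igkv17-127 when 2-month replicate 1 or 3 was. Igkv5-48 kept its call in all 15 other fits. Igkv4-68 had 0, 13 and 0 counts, then 3792, 165 and 169. Igkv6-25 had 0, 13 and 0, then 3208, 98 and 84. Replicate 1 thus held 91.9% and 94.6% of their 18-month counts, and both calls (adjusted p = 0.0246 and 0.0346, edgeR) were lost when that library or 2-month replicate 1 or 3 was left out, and for Igkv6-25 also when 2-month replicate 2 was. DESeq2 gave no adjusted p for either gene or for Igkv17-127.

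Igkv1-117 was the leading kappa V gene of 2-month replicate 2, with 0, 247 and 4 counts at 2 months and 6775, 1667 and 1926 at 18 months. The groups did not overlap, and its log2 fold change of 5.18 (SE 1.903) missed the threshold (adjusted p = 0.0646, edgeR), whereas DESeq2 and limma on log2(FPKM + 0.1) called it (adjusted p = 0.0268 and 0.0134). Igkv4-59 had 0, 79 and 0 counts against 861, 495 and 441 (adjusted p = 0.0870, edgeR), was not called by DESeq2 (adjusted p = 0.120) and was called by limma on log2(FPKM + 0.1) (adjusted p = 0.0127). With edgeR, Igkv1-117 and Igkv4-59 were called when 2-month replicate 2 was left out (adjusted p = 0.00111 and 0.000361). That fit left Igkv4-59 at 0 in the young group. In 2-month replicate 3 the leading kappa V genes were Igkv9-120, Igkv4-55 and Igkv10-95, with 8, 7 and 6 counts. Igkv9-120 was called higher (0, 24 and 8, then 1122, 690 and 576 counts, adjusted p = 0.00808, edgeR), and Igkv10-95, with at most 23 counts in any library, was not tested.

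The lambda chain has 3 V genes in the mouse table, and whether they were called depended on the tool. Iglv1 had 0, 346 and 0 counts at 2 months and 4588, 1465 and 1320 at 18 months (log2 fold change 4.24, SE 2.08, adjusted p = 0.135, edgeR). Iglv2, 97.4% identical to it, had 0, 76 and 0 counts, then 477, 514 and 494 (log2 fold change 4.14, SE 1.75, adjusted p = 0.0937). Iglv3 had 2, 55 and 9 counts, then 474, 96 and 79 (log2 fold change 3.06, SE 1.25, adjusted p = 0.0856). No lambda V gene overlapped between the groups, and Iglv3 was the only member of the 198 seen in all 3 young libraries. With all libraries, DESeq2 called Iglv3 (adjusted p = 0.00452) but not Iglv1 or Iglv2 (adjusted p = 0.203 and 0.135), and limma on log2(FPKM + 0.1) called all 3 (adjusted p = 0.0232, 0.0130 and 0.0409 for Iglv1, Iglv2 and Iglv3). With edgeR, all 3 were called when 2-month replicate 2 was left out (adjusted p = 0.00166, 0.000148 and 0.0153 for Iglv1, Iglv2 and Iglv3). That fit left Iglv1 and Iglv2 at 0 in the young group. Iglv2 was near level across the aged libraries, whereas Iglv1 and Iglv3 were highest in replicate 1.

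**Figure D2:**
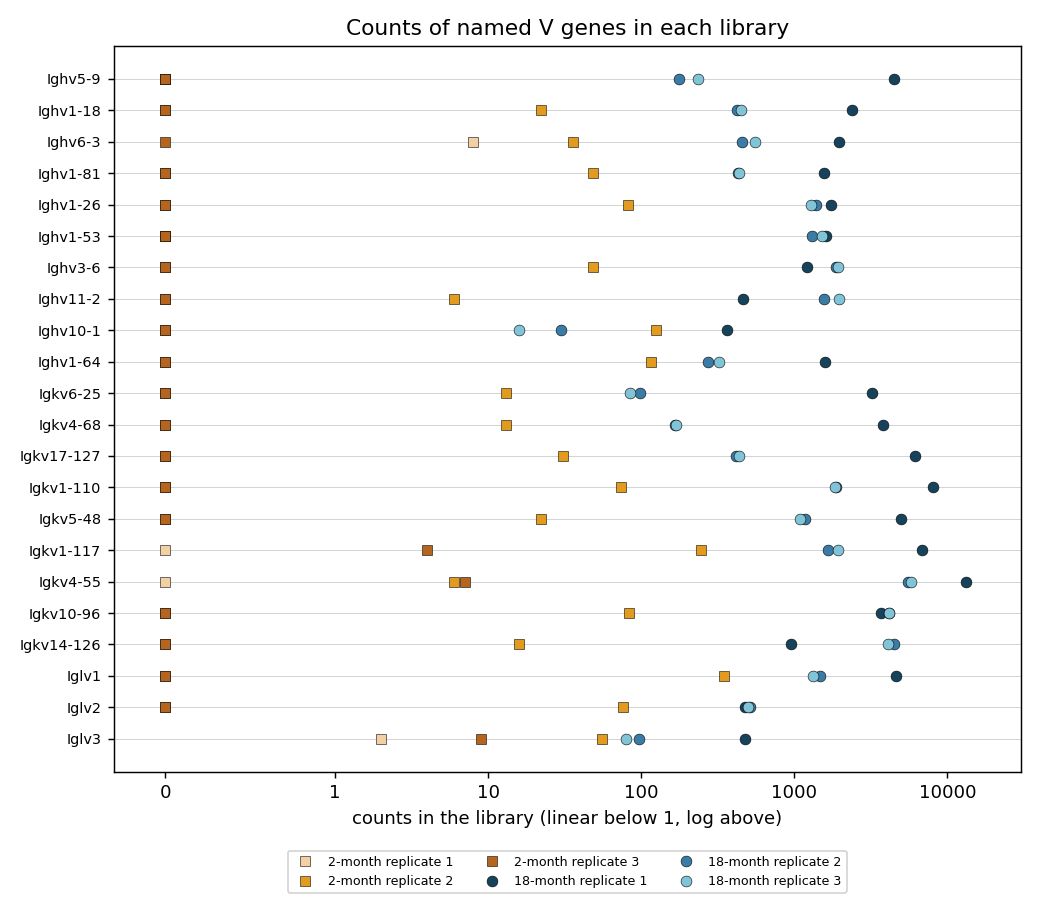
Counts in each library (linear below 1, log above) of 22 V genes described in the text; squares are 2-month and circles 18-month libraries, and squares at 0 overlie each other. For Ighv5-9, Igkv6-25 and Igkv4-68 the first aged library stands far to the right of the other two, for Ighv11-2 and Igkv14-126 it stands to their left, and for Ighv10-1 the age groups overlap.

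Evenness was described within each chain by the effective number of V genes, the exponential of the Shannon entropy of their counts, which equals the number of genes if all are equally abundant. 2-month replicate 1 had under 10 counts of each chain, so no test was made. For the heavy chain it was 48.5 in 2-month replicate 2 and 46.5, 43.3 and 42.1 at 18 months (43.9 ± 2.28, SD, n = 3). For the kappa chain it was 44.0 in 2-month replicate 2 and 33.1, 34.2 and 34.0 at 18 months (33.8 ± 0.596). The 24 heavy and 39 kappa counts of 2-month replicate 3 gave 4.28 and 7.51. In draws of 24 heavy and 39 kappa counts, the other libraries with more than 100 V counts gave 16.9 to 18.2 and 21.3 to 24.9 V genes, where 2-month replicate 3 had 5 and 8. Of these, 4 heavy and 8 kappa V genes had at least 3 counts, so the limit on draws given above holds here too. Evenness on a scale up to 1 (entropy over its largest possible value for the genes detected) was 0.902 and 0.897 for heavy and kappa in 2-month replicate 2, and 0.819 to 0.843 and 0.782 to 0.793 at 18 months. The single young library of usable depth was thus more even than each aged library for both chains, with no replicate to give its spread. Depth was not matched for these measures. In draws of 1843 heavy and 1797 kappa counts, the aged libraries gave 82.9 to 84.3 and 75.1 to 76.1 V genes, where 2-month replicate 2 had 74 and 68.

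The top share, the percent of a chain's counts in its most abundant V gene, was alike across the aged libraries although the leading heavy chain gene was not. In 18-month replicate 1 Ighv5-9 held 10.3% of heavy chain V counts (95% exact binomial interval 10.04% to 10.62%), in replicate 2 Ighv3-6 held 10.2% (9.78% to 10.7%) and in replicate 3 Ighv11-2 held 10.1% (9.65% to 10.5%). In 2-month replicate 2 Ighv10-1 held 6.73% (5.63% to 7.97%). For the kappa chain Igkv4-55 led in each aged library at 14.3% ± 0.553 (SD, n = 3), and Igkv1-117 held 13.7% (12.2% to 15.4%) in 2-month replicate 2. The intervals cover counting error only. On the FPKM scale, which allows for gene length, the mean top shares at 18 months were 10.2% and 14.0%.

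Shares were also summed over the leading V genes of a chain. The 5 leading kappa V genes held 43.7%, 43.9% and 44.5% of the kappa counts at 18 months and 30.7% in 2-month replicate 2. The 5 leading heavy chain V genes held 28.1%, 36.1% and 37.5% at 18 months and 26.7% in 2-month replicate 2, so the first aged library lay nearer to the young one than to the other aged libraries. It took 7, 8 and 7 kappa V genes to reach 50% of the aged kappa counts and 12 in 2-month replicate 2. For the heavy chain it took 12, 11 and 11 genes at 18 months and 13 in 2-month replicate 2. Iglv1 held 82.8%, 70.6% and 69.7% of lambda counts at 18 months and 72.5% in 2-month replicate 2.

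**Figure D3:**
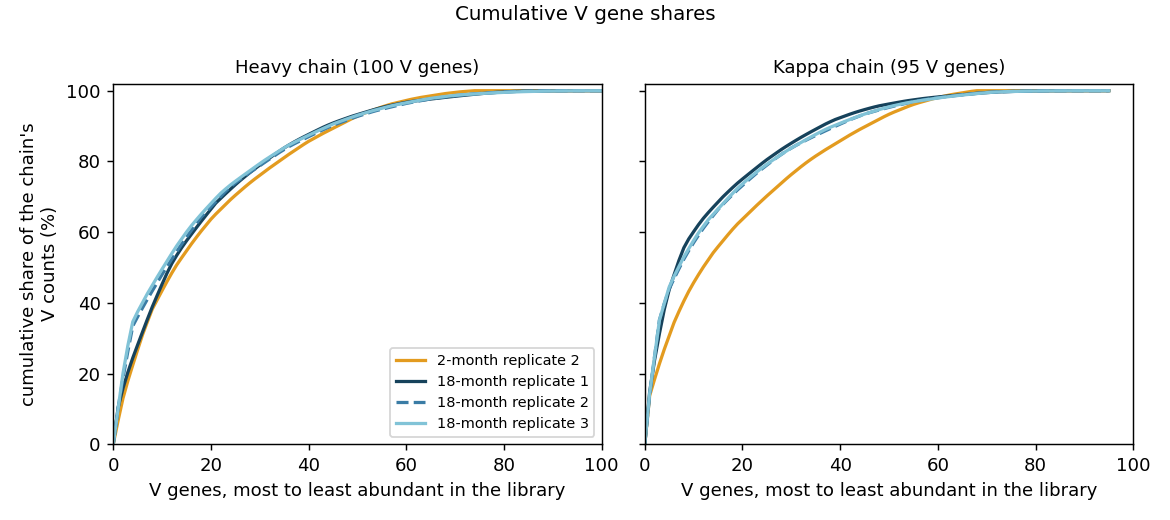
Cumulative share of a chain's V counts (%) against V genes ranked from most to least abundant, for the heavy chain (left) and the kappa chain (right) in the 4 libraries with more than 100 V counts. At rank 5 the kappa curve of 2-month replicate 2 stands at 30.7%, below the aged ones at 43.7% to 44.5%, and the heavy chain curves stand at 26.7%, 28.1%, 36.1% and 37.5%.

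Which V genes were used differed among the aged libraries. Between 18-month replicates 2 and 3 the shares were nearly alike: Spearman's rho across genes was 0.964 over 100 heavy chain V genes and 0.981 over 95 kappa V genes, and 9 of the 10 leading genes were shared in each chain. The Morisita-Horn index, an overlap of relative abundances that is 1 for identical repertoires, was 0.992 and 0.997. Between replicates 1 and 2, rho was 0.755 and 0.766 and the index was 0.598 and 0.750. These correlations are across genes, which are not independent replicates, and the genes share libraries and near-identical sequence. The share changed over 2-fold for 55.6% of heavy chain V genes between replicates 1 and 2 and for 9.88% between replicates 2 and 3, among genes with enough counts in the pair. The pairs of libraries are plotted by share.

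The 18-month replicates 2 and 3 were kept as separate samples, as labelled. Their median chi-square over its expected value was 6.04 for heavy and 6.50 for kappa V genes. Sampling noise alone gives about 1 if each count is an independent read, which is not known here. The ratio therefore cannot show whether the libraries come from separate samples. The study states in general that its experiments used independent samples. The labels do not say whether these libraries share an animal or RNA, so the n = 3 of the aged group may hold fewer independent samples. The same ratio over 19615 genes other than V genes was 6.32, and between replicates 1 and 2 it was 23.2 for those genes but 68.5 for heavy and 92.3 for kappa V genes. The first aged library thus departed from the others more in its V genes than in other genes, on this scale, which grows with the counts of a gene. It held 53.2% of all 18-month V counts. Of the 159 members with at least 100 counts at 18 months, 18 had over 80% of them in replicate 1. The highest share was 52.0% in replicate 2 and 60.6% in replicate 3. These 2 libraries were nearly alike and divided the counts of a member between them, so neither could readily pass 80% alone. Ighv11-1, with 0, 85 and 119 counts, had none in replicate 1. These shares thus cannot show that concentration was particular to replicate 1.

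Against 2-month replicate 2, the aged libraries gave rho of 0.478 to 0.525 for heavy and 0.556 to 0.616 for kappa V genes, and a Morisita-Horn index of 0.448 to 0.509 and 0.470 to 0.549. Of the 10 leading heavy chain V genes in that library, 3 or 4 were among the 10 leading ones of an aged library, and for the kappa chain 4 were. The young library held fewer counts, which lowers such values, and the part of depth was not tested.

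**Figure D4:**
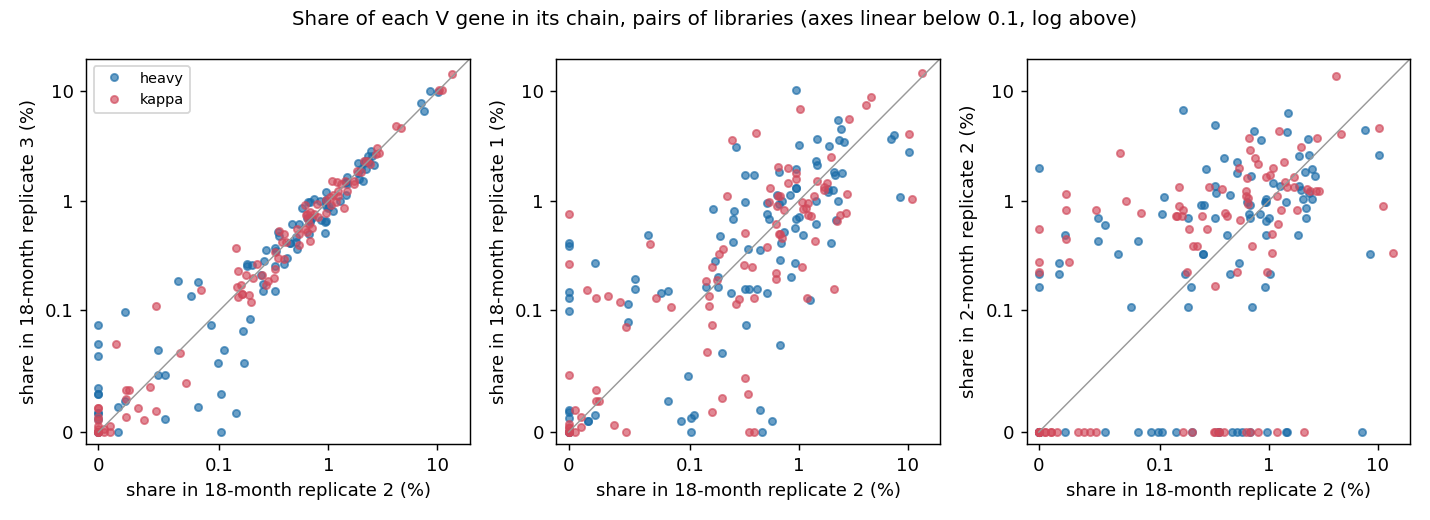
Share (%) of each heavy and kappa V gene in its chain in 18-month replicate 2 against 18-month replicate 3 (left), 18-month replicate 1 (middle) and 2-month replicate 2 (right), with axes linear below 0.1 and log above; the line marks equal shares. Points hug the line on the left and scatter in the other panels.

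V genes fall into families by sequence, and the families shifted with the single genes named above. Ighv1 (48 members) held 54.5%, 53.3% and 50.8% of the heavy chain counts at 18 months and 49.6% in 2-month replicate 2, and 28 of its 39 tested members were called higher, where 14.9% of all genes tested were. Most of these members passed the filter through the aged libraries. Ighv5 (9 members) held 18.0% in 18-month replicate 1 against 6.89% and 7.75% in replicates 2 and 3. Ighv3 held 3.07% against 11.3% and 11.2%, and Ighv11 held 1.08% against 9.02% and 10.7%. Ighv10 held 7.43% in 2-month replicate 2 and 0.337% to 1.82% at 18 months. Replicates 2 and 3 thus shared their family make-up, and replicate 1 differed from both through Ighv5, Ighv3 and Ighv11.

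Among kappa families, Igkv4 (25 members) was the largest, with 25.9%, 22.4% and 22.6% of kappa counts at 18 months and 16.6% in 2-month replicate 2. Igkv14 held 2.16% in 18-month replicate 1 and 14.0% and 13.2% in replicates 2 and 3, beside 2.34% in 2-month replicate 2. Igkv10 held 4.75%, then 12.7% and 12.8%, beside 6.18%. Igkv17 held 7.76%, then 1.67% and 1.85%, beside 3.34%. Igkv1 held 23.5% in 2-month replicate 2, more than its 19.3%, 11.4% and 12.0% at 18 months.

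Shares were also summed by position along the chromosome. The 50 heavy chain V genes nearest the constant genes held 47.2% of heavy chain counts in 2-month replicate 2 and 45.4%, 47.6% and 49.0% at 18 months. The 47 nearest kappa V genes held 43.4% in 2-month replicate 2 and 48.8%, 45.9% and 45.9% at 18 months. All 100 heavy chain V genes lie on the minus strand, whereas 58 kappa V genes lie on the minus and 37 on the plus strand. Kappa V genes facing the same way as the J segments join by deletion and the others by inversion of the DNA between. Minus-strand kappa V genes held 53.8% of kappa counts in 2-month replicate 2 and 54.9%, 59.4% and 59.7% at 18 months.

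**Figure D5:**
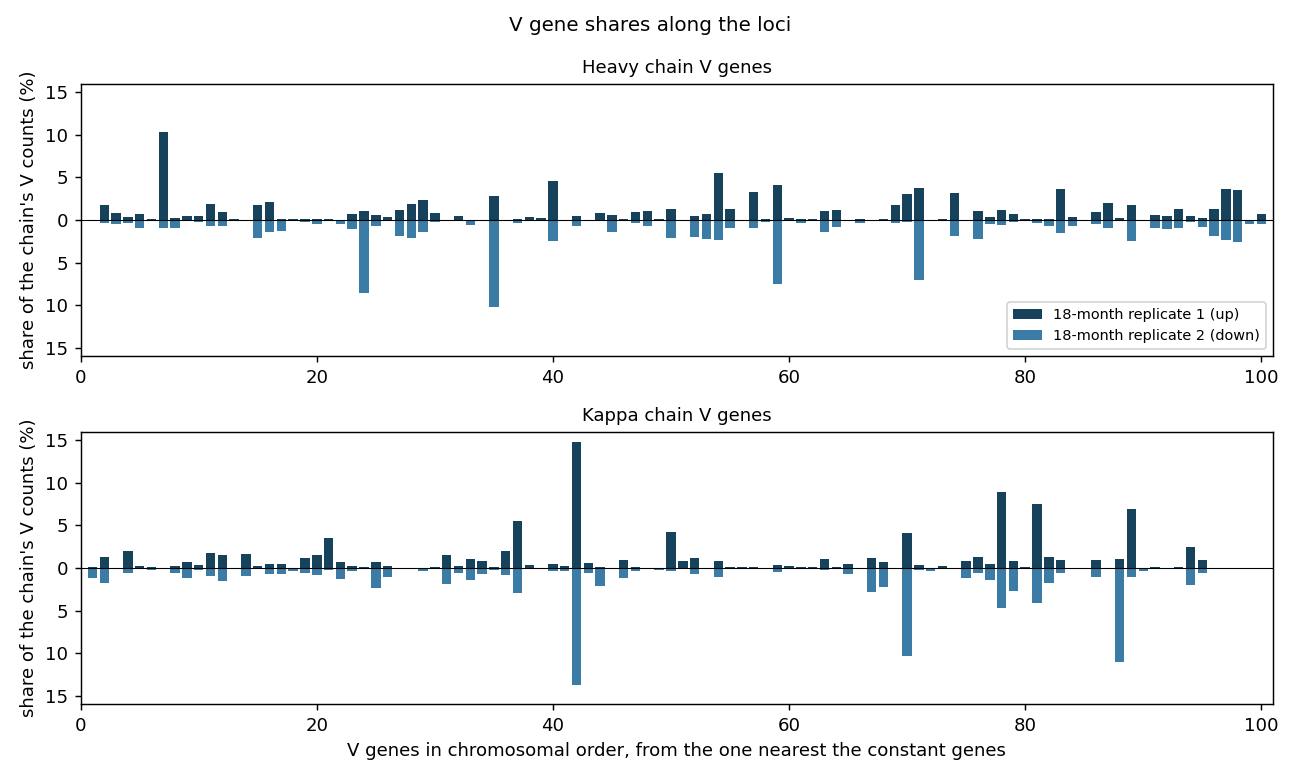
Share (%) of each V gene in its chain, by chromosomal order from the gene nearest the constant genes, in 18-month replicate 1 (bars up) and 18-month replicate 2 (bars down), for heavy (top) and kappa (bottom) V genes. Tall bars are spread along both loci, and in the heavy chain the tallest bar is a different gene in each library, whereas the tallest kappa bar is Igkv4-55 in both.

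The J segments and constant genes that V genes are joined to were read beside them. Igkj3, a kappa J segment known to be little used, had 15 counts in 2-month replicate 2 and 20, 17 and 13 at 18 months, while Igkj1 had 44, then 974, 695 and 741. Igkc, the kappa constant gene, had 20, 2350 and 34 counts at 2 months and 115129, 59327 and 58593 at 18 months (log2 fold change 6.44, SE 2.04, adjusted p = 0.0421, edgeR). There were 0.765 kappa V counts per Igkc count in 2-month replicate 2 and 0.678 to 0.781 at 18 months, so that library lay within the range of the aged ones. For heavy V counts per heavy constant count it lay below them, at 0.128 against 0.157 to 0.197. Class-switched genes (IgG, IgA and IgE) took 9.98% of heavy constant counts in 2-month replicate 2 and 75.0%, 59.6% and 59.4% at 18 months.

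V gene counts did not follow those of Rag1 in proportion. Rag1, part of the enzyme that cuts V, D and J segments in developing lymphocytes, had 10, 2457 and 37 counts at 2 months and 908, 806 and 674 at 18 months (log2 fold change -0.21, SE 1.68, adjusted p = 0.927, edgeR). There were 1, 1.68 and 1.95 V counts per Rag1 count at 2 months and 153, 75.1 and 90.9 at 18 months. Jchain, which links secreted IgM and IgA, had 14, 355 and 23 counts at 2 months and 24687, 18765 and 18559 at 18 months (log2 fold change 7.14, SE 1.43, adjusted p = 0.00949, edgeR). Tnfrsf17, the survival receptor of plasma cells, was at 0 in all young libraries and had 40, 50 and 43 counts at 18 months. Thus 2-month replicate 2 was above every aged library in Rag1 counts and below all of them in Jchain counts. Jchain and Tnfrsf17 were the only genes called higher of the 12 listed for plasma cells. Sdc1, Xbp1, Derl3 and Fkbp11 had log2 fold changes below 0. Mzb1, Prdm1, Irf4, Tnfrsf13b, Pou2af1 and Slamf7 had log2 fold changes above 0 but were not called. Sdc1 had 1131, 3897 and 1696 counts at 2 months and 1441, 1672 and 1761 at 18 months. Its log2 fold change was -0.678 (SE 0.407, adjusted p = 0.206, edgeR).

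The lists of related genes give the same values by count. For comparison, 14.9% of all genes tested were called higher and 21.3% lower. Of the heavy constant genes 5 of 7 tested were called higher and 0 lower, and of the light constant genes 1 of 4 and 0. V(D)J recombination genes had 1 of 12 higher (Dclre1c, which opens the hairpin ends) and 0 lower, with a median log2 fold change of -0.08. Surrogate light chain and pre-B genes had 0 of 12 higher and 1 lower (Erg, which is also expressed in other tissues), with a median of 0.60. Mature B cell genes had 1 of 12 higher and 0 lower (median 2.18) and plasma cell genes 2 of 12 higher and 0 lower (median 1.004). Class switch, hypermutation and germinal centre genes had 3 of 11 higher and 1 lower (Bcl6, also expressed outside B cells), and the octamer and other factors of V promoters had 0 of 12 higher and 1 lower (Tcf4). T cell genes had 9 of 12 higher and 0 lower (median 4.77), neutrophil genes 0 of 14 in either direction (median 4.95) and erythroid genes 3 of 11 higher and 0 lower (median 3.77). The median over all genes tested was -0.02, and no statement on any list beyond its counts was tested.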

How the data were processed

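RNA was extracted from cartilage with TRIzol, selected by poly(A) and made into strand-specific (dUTP) paired-end libraries. The authors deposited 1 table with whole-number read counts and FPKM values for each gene and library. The submitters' processing notes list cutadapt 1.9, HISAT2 2.0.4, UMI-tools, StringTie 1.3.4d, DESeq2 and edgeR without their roles, and the genome build is not given in the sources used here. How reads that match several V genes were counted is not given either, and StringTie can divide them.

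Counts were fitted with edgeR 4.0.16 (R 4.3.3, limma 3.58.1): filterByExpr, TMM normalization, glmQLFit and glmQLFTest over all 6 libraries without a replicate block, with Benjamini-Hochberg adjustment over 20397 genes. A gene was called at an adjusted p under 0.05 and a log2 fold change above 1 or below -1, the limits of the study. SE is the log2 fold change over the square root of F. For a gene at 0 counts in all young libraries, the fold is a lower bound against 3 counts in each. Shares, effective numbers, rarefied numbers and two-sided exact permutation tests used Python 3.11.15 with numpy 2.4.6 and scipy 1.17.1. The call, diversity and rarefaction steps were tested on simulated data. Depth was 48171507 to 59085179 counts per library, and intervals cover counting error only.

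Named V genes were the 8 heavy and 8 kappa genes with the most counts, every lambda gene, the 3 leading genes of each chain in each library with at least 10 counts of it, the 3 heavy and 3 kappa genes with the most young counts, any gene called lower, and, for each aged library, the gene most concentrated in it. The members and gene lists were chosen with earlier results of these data known. Alternatives were DESeq2 1.42.0, other scaling, no filter, limma on log2(FPKM + 0.1) with other pseudocounts, pseudogenes included, higher count minimums, a replicate block and leaving out each library. Sums of 18-month replicates 2 and 3 and further rarefaction depths were chosen after seeing the data. Replicates were numbered by the labels. No promoter or protein sequence of the members was used.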

Additional observations from a re-analysis of the deposited data

Results flagged for a closer look

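V rows annotated as pseudogenes, which the comparisons left out, carried counts in every aged library. The lowest 18-month library had 196 such counts, and the other two had 262 and 210, while the 2-month libraries had 0, 85 and 0. They came from 15, 18 and 11 of the 35 rows at 18 months and from 10 in 2-month replicate 2. Ighv1-41 held the most, with 62, 137 and 157 counts at 18 months and 13 in 2-month replicate 2. This was singled out because it is a signal in rows outside the main measurement that lies above the young libraries. The V gene counts beside it were 4117 in 2-month replicate 2 and 138630, 60565 and 61241 at 18 months. Over that young library the pseudogene rows thus rose far less than the V genes. Groups of 3 libraries were not tested for outlying samples.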

How the results depend on the processing

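No member was called lower under any of the 15 alternatives. The 106 V genes called higher became 128 with DESeq2, 106 with median-of-ratios scaling, 105 with total counts alone, 96 without a filter on low counts, and 152, 139 and 152 with limma on log2(FPKM + 0.1, 1 and 0.01). Leaving out a library gave 60 (2-month replicate 3) to 157 (2-month replicate 2), with 64, 67 and 71 without 18-month replicates 1, 2 and 3 and 82 without 2-month replicate 1. With the replicate block 56 were called, but the numbers did not pair the samples (correlations of deviations 0.03, 0.04 and -0.02). With 18-month replicates 2 and 3 summed, chosen after seeing the data, 72 were called. Of the 20 named V genes called, 20 kept the call under each limma fit and each other scaling, 16 with DESeq2 (which gave no adjusted p for the other 4), 11 with the block and 10 to 19 when a library was left out. The difference in V share was 0.149 percentage points in counts, 0.107 to 0.170 with a library left out and 0.935 in FPKM. That in genes detected was 131, and 105 to 176 with a library left out. In draws it was 2.78 at 10 V counts, 11.6 at 72 and 16.5 at 4117 (the last 2 depths chosen after seeing the data). The young mean at 72 rested on replicates 2 and 3, and the young value at 4117 on replicate 2 alone. At 10 and 72 counts, 2-month replicate 2 lay above every aged library (9.20 against 8.92 to 8.96, and 46.2 against 41.7 to 41.8). The differences at these depths thus came from the other young libraries and show no excess common to the group. Effective numbers and top shares moved by less than 1 SD of the replicates in every alternative. Depth limits the young libraries: replicates 1 and 3 held 10 and 72 V counts and give no usable repertoire.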
